A study of Homo sapiens with 6 samples.

Results

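Metallothioneins and the genes of the cellular zinc response were examined in COV434 cells exposed to 4HC. The group was defined by gene symbol as MT1E, MT1F, MT1G, MT1M, MT1X, MT2A, MTF1 and SLC30A1, 8 genes beside the 16798 in the gene table. The symbols and not a threshold on measured values define the group, but it was chosen with earlier results of these data known. Of these, 6 had a row in the table, and MT1G and MT1M, for which no row matched, were not analysed here. MT1X, MT2A, MTF1 and SLC30A1 passed the filter on low counts and were among the 12368 genes tested, and MT1E and MT1F did not pass it.

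The paper describes COV434 as an immortalized human granulosa cell (GC) line. Bulk RNA sequencing was used to compare 3 control samples with 3 samples treated with 15 µM 4HC for 24 h. 4HC is the pharmacologically active form of cyclophosphamide (CTX), an alkylating drug toxic to the ovary. All 6 samples came from this 1 line, which is the limit of the model, and the labels do not say whether the 3 samples of a group were separate cultures, so that p-values measure the spread between these samples, which may be technical.

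Metallothioneins are small proteins, rich in cysteine, that bind zinc and copper and can also react with oxidants and with electrophiles such as alkylating drugs. MTF1 is the transcription factor that senses free zinc and binds metal response elements in the promoters of metallothionein genes and of SLC30A1, which encodes the zinc exporter of the plasma membrane. Members of the SLC30 family move zinc out of the cytosol, and members of the SLC39 family bring it in.

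MT1X and MT2A carried nearly all metallothionein reads, and they changed in opposite directions. MT1X was downregulated and MT2A upregulated in 4HC, while SLC30A1 rose by a smaller amount and MTF1 was slightly lower. Of the 4 tested genes, 2 were called higher and 2 lower at an adjusted p under 0.05 by edgeR's quasi-likelihood test with Benjamini-Hochberg adjustment over all genes, against a background of 19.2% of all tested genes called higher and 17.1% called lower. In edgeR, 142 tested genes (1.15%) met the criterion in the study's methods, a change of 2-fold or more with an unadjusted p under 0.05. The paper reported many more genes at this criterion, and the reason for the difference was not tested. Of the 4 genes above, 0 met it in edgeR, although all 4 had an unadjusted p under 0.05. By DESeq2, and by limma on TPM or FPKM values, the number was also 0, with 3 genes at an unadjusted p under 0.05. The median absolute log2 fold change was 0.33 over the 4 genes, 0.13 over all tested genes and 0.23 over the 4497 called genes.

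The summed expected counts of a sample lay between 16133786 and 16702316. Replicates of a group differed by more than counting noise, with a chi-square per gene of 1.7 to 2.46 over the 6 pairs. The cell type was checked against 10 granulosa markers, of which 9 had a row. WT1, at 218 ± 1.44 CPM in controls and 171 ± 2.59 CPM in 4HC, and AMH, at 5.19 ± 1.37 and 5.27 ± 1.04 CPM, were above 1 CPM in each group. FOXL2, FSHR, CYP19A1, GATA4 and STAR, also on the granulosa list, had at most 3 counts in every sample. INHA and INHBA had means below 1 CPM in each group. The granulosa identity thus rests here on the paper's description and not on these markers. The summed level of the granulosa markers was 223 to 227 CPM in controls and 175 to 181 CPM in 4HC, and WT1 was lower (edgeR, adjusted p = 8.81e-12). Leukocyte markers summed to 1.57 to 1.91 CPM in controls and 1.22 to 2.66 CPM in 4HC, endothelial markers to at most 0.122 CPM, and fibroblast markers to 45.3 to 51.5 CPM and 44.3 to 51.8 CPM. DCN made up most of the fibroblast sum, and none of these 3 marker lists held a called gene. The part of these markers in the metallothionein results was not tested.

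The genes of MT1X and MT2A lie together at 16q13 on the forward strand. The coding sequences are shown because the close likeness of these genes bears on how reads were assigned to them. Both were read from the GENCODE release 29 transcripts of GRCh38, MT1X from 3 exons with coding bases between 56682541 and 56684049 of chromosome 16 and MT2A from 3 exons with coding bases between 56608656 and 56609354. Bases that differ are in capitals.
MT1X: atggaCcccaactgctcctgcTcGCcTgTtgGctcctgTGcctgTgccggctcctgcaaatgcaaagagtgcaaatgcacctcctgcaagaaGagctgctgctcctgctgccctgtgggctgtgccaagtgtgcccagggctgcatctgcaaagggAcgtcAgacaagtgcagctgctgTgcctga
MT2A: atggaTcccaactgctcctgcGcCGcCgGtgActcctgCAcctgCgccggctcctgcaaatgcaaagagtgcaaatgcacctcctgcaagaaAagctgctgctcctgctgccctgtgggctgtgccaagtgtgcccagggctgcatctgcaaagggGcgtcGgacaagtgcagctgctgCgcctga
Each coding sequence had 186 bases and 61 codons before the stop, of which 20 were cysteine codons. They differed at 14 positions and were 92.5% identical, and 10 of the 14 differences fell within the first 45 bases. The longest run without a difference was 63 bases. From the start of MT1X in the deposited table to the end of the transcript, 51.0% of windows of 50 bases occurred unchanged in transcripts of 9 other genes, mostly metallothionein genes and pseudogenes, and 22.0% of windows of 100 bases in those of 1 gene, AC026461.1. For MT2A, counted in the same way, the shares were 10.2% and 0%. The GENCODE transcripts begin farther upstream, and over their full length the shares at 50 bases were 45.1% for MT1X and 4.88% for MT2A. The read length and the treatment of reads with several matches are not given in the sources used here, so MT1X counts may include reads of other metallothioneins, while most of the MT2A transcript is unique at these lengths.

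MT1X (gene 4501; chr16:56682470-56687807 in the deposited table, GRCh38) encodes a widely expressed metallothionein of the MT1 group. Its counts were 751, 716 and 733 in the control samples and 535, 530 and 536 in the 4HC samples. All 3 4HC samples were lower than every control sample, and the 4HC samples were nearly equal. After TMM scaling this was 46.3, 44.1 and 44.2 counts scaled to a library total of 1000000 (CPM) in controls and 32.3, 32.7 and 32.8 CPM in 4HC. The mean fell from 44.9 ± 1.24 to 32.6 ± 0.27 CPM (SD, n = 3), a fold change of 0.727 with a 95% interval of 0.673 to 0.785. The log2 fold change was -0.46 (SE 0.056), with an adjusted p of 1.68e-09 by edgeR. In bulk RNA, fewer cells of a type and less RNA per cell cannot be told apart.

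MT2A (gene 4502; chr16:56608584-56614681) encodes the metallothionein that is commonly the most abundant in human tissues. In the control samples 167, 191 and 179 reads were counted, and in the 4HC samples 264, 217 and 259. The second 4HC sample was nearest to the controls, but the groups did not overlap. Scaled values were 10.3, 11.8 and 10.8 CPM in controls and 15.9, 13.4 and 15.9 CPM in 4HC. MT2A was upregulated from 10.9 ± 0.743 to 15.1 ± 1.45 CPM (n = 3), a fold change of 1.38 with a 95% interval of 1.21 to 1.57. Its log2 fold change was 0.46 (SE 0.093), with an adjusted p of 7.27e-05 by edgeR. The changes of MT1X and MT2A were therefore of the same size on the log2 scale and of opposite sign.

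MT1E and MT1F, other members of the MT1 group, were almost without reads. MT1E (chr16:56625781-56633986) had 1 count in the second 4HC sample and 0 in the other 5 samples, and MT1F (chr16:56657694-56661006) had 1 count in the first control sample and 0 in the others. A count of 0 allows up to 3 counts, which is 0.18 to 0.186 CPM in these samples and covers counting error only. Both genes were thus at or below the limit of detection in each group, and no fold change was given. Among the other metallothioneins, MT1B and MT3, the latter known from brain, had 1 count each in a single 4HC sample, and MT1A, MT1H, MT1HL1 and MT4 had no row and were not analysed here.

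Because reads of near-identical genes can be divided between rows, the 5 rows of the MT1 and MT2A genes were also summed. All counts of these 5 rows were whole within 0.005 in every sample, as were 85.5% of all gene values. Whether whole reads were assigned to the wrong row was not tested. The summed counts were 919, 907 and 912 in controls and 799, 749 and 795 in 4HC. The pool was lower in all 4HC samples, with 55.8 ± 0.8 CPM in controls and 47.7 ± 1.32 CPM in 4HC, a ratio of 0.855. In TPM, a unit that takes transcript length into account, the sum was 697 ± 7.64 in controls and 587 ± 21.2 in 4HC. The rise of MT2A thus did not make up for the fall of MT1X in the total.

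The makeup of the pool shifted toward MT2A. Its share of metallothionein counts was 18.2% (95% Wilson interval 15.8 to 20.8), 21.1% (18.5 to 23.8) and 19.6% (17.2 to 22.3) in controls. In 4HC it was 33.0% (29.9 to 36.4), 29% (25.8 to 32.3) and 32.6% (29.4 to 35.9), and no interval of a 4HC sample touched one of a control sample. The mean share rose from 19.6% ± 1.45 to 31.5% ± 2.2 (n = 3). These intervals cover counting error only, and the share was not tested. In TPM, MT1X exceeded MT2A by a ratio of 4.03 ± 0.365 in controls and 2.14 ± 0.22 in 4HC, so that MT1X remained the more abundant transcript in each of the 6 samples.

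**Figure D1:**
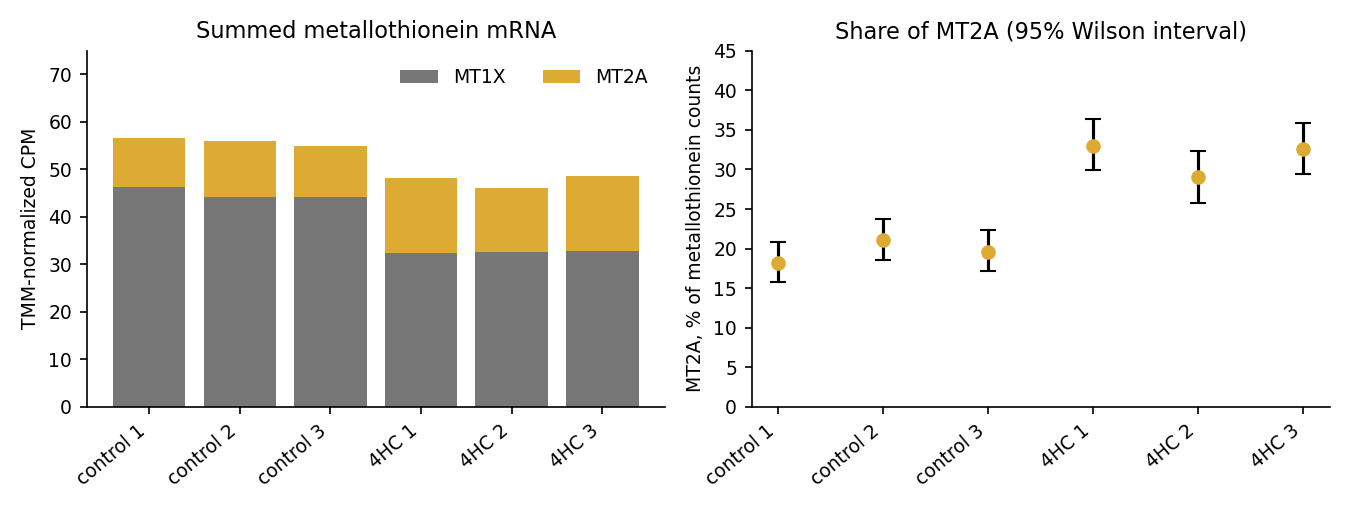
Makeup of the metallothionein pool by sample, as stacked CPM of MT1X and MT2A and as the MT2A share of metallothionein counts with 95% Wilson intervals. The stack is lower in every 4HC sample than in every control, as is the sum over all 5 rows (46.2 to 48.7 CPM in 4HC and 55.0 to 56.6 CPM in controls), which holds at most 2 further counts a sample, while the MT2A share is 29% to 33.0% in 4HC and 18.2% to 21.1% in controls.

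MTF1 (gene 4520; chr1:37809570-37859614, 1p34.3), the zinc-sensing transcription factor, showed the weakest of the 4 changes. Its estimated counts were 480, 439 and 423 in controls and 406.82, 380.59 and 413 in 4HC. Scaled levels were 29.6, 27 and 25.5 CPM in controls and 24.6, 23.5 and 25.3 CPM in 4HC, and the lowest control lay just above the highest 4HC sample. In TPM the groups overlapped, with 5.24 in the third control and 5.39 in the third 4HC sample. The mean was 27.4 ± 2.05 CPM in controls and 24.4 ± 0.898 CPM in 4HC, a log2 fold change of -0.16 (SE 0.066; 95% interval -0.30 to -0.03) with an adjusted p of 0.0489 by edgeR. The call was lost in 11 of 15 alternative analyses, among them DESeq2 (adjusted p = 0.175). Leaving out 1 sample also ended it, with an edgeR adjusted p of 0.292 without the first control, 0.0644 without the second control, 0.0717 without the first 4HC sample and 0.173 without the second 4HC sample. MTF1 was lower in every alternative.

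Reads of MTF1 were spread over 4 transcripts, of which NM_005955 held 93.9%. This transcript had 476.17, 439 and 366.06 counts in controls and 376.05, 324.06 and 404.76 in 4HC, and at this level the groups overlapped. The other 3 transcripts were each at 0 in 3 or more samples. MT1X, MT2A and SLC30A1 had a single transcript each in the transcript table.

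SLC30A1 (gene 7779; chr1:211558925-211613071, 1q32.3), the zinc exporter of the plasma membrane and a classical MTF1 target, rose modestly. Its counts were 1245, 1286 and 1376 in controls and 1461, 1484 and 1524 in 4HC. Scaled levels were 76.7, 79.1 and 83.0 CPM in controls and 88.2, 91.5 and 93.3 CPM in 4HC, with no overlap. The mean rose from 79.6 ± 3.17 to 91.0 ± 2.59 CPM (n = 3), a fold change of 1.14 with a 95% interval of 1.07 to 1.21. The log2 fold change was 0.19 (SE 0.044), with an adjusted p of 0.000435 by edgeR.

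Per length, the order of the 4 genes was the same in both groups. In controls MT1X stood at 558 ± 15.8 TPM, MT2A at 139 ± 8.71, SLC30A1 at 22.2 ± 0.971 and MTF1 at 5.63 ± 0.483 TPM (n = 3). In 4HC the levels were 398 ± 5.5, 188 ± 19.4, 25.2 ± 0.61 and 5.08 ± 0.288 TPM. No neighbours in this order overlapped in any sample. Among all 16798 genes, MT1X ranked 201 by mean TPM in controls and 302 in 4HC, while MT2A moved from rank 965 to rank 676. MTF1, at rank 9166 in controls and 9399 in 4HC, was the least abundant of the tested members.

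**Figure D2:**
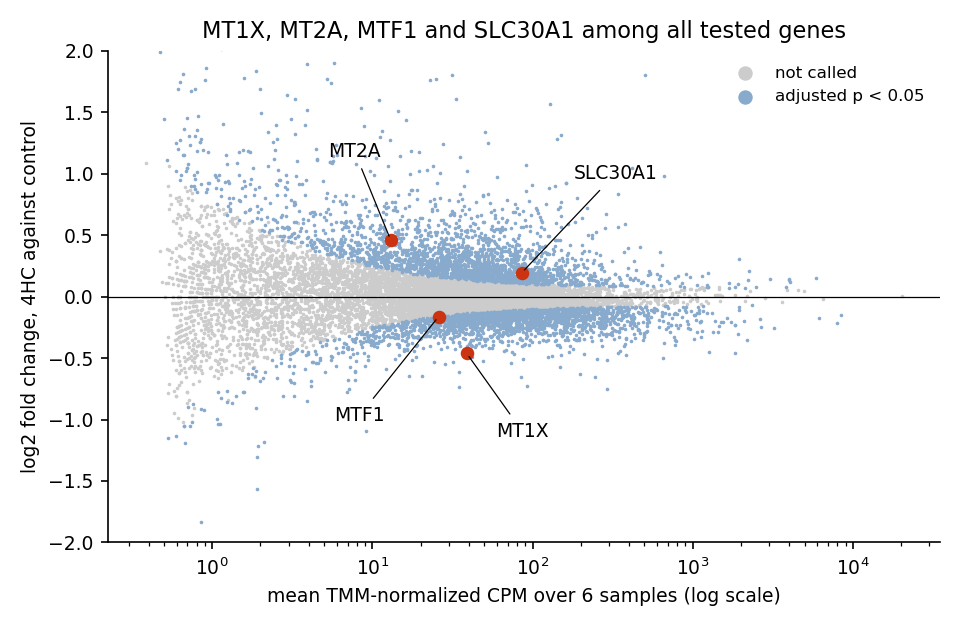
Log2 fold change of 4HC against control by mean TMM-normalized CPM (log axis) for the tested genes, with genes at an adjusted p under 0.05 in blue and MT1X, MT2A, MTF1 and SLC30A1 marked in red. MT1X and MT2A stand at -0.46 and 0.46, and MTF1 lies at the edge of the called genes; 14 genes lie beyond the vertical axis.

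The promoters of the tested genes were examined for the metal response element, the sequence that MTF1 binds. It was searched as TGCACNC and TGCGCNC on both strands in the 250 bases before each gene's RefSeq start on GRCh38.p14, and 4 of the 8 members had a window. MTF1 and SLC30A1 lie on the reverse strand, and the gene limits that the authors deposited differ from these starts. By those limits the SLC30A1 window lies inside the gene and the MTF1 window overlaps the gene's start. By the GENCODE transcripts used above, the MT2A window lies inside the transcript, which starts at 56608199. The MT1X window holds the GENCODE start at 56682424. All distances below are counted from the RefSeq starts and depend on that choice. MT2A had 7 matches (chr16:56608334-56608583), MT1X had 4 (chr16:56682220-56682469), SLC30A1 had 1 (chr1:211579162-211579411) and MTF1 had 0 (chr1:37859593-37859842). Among 35116 promoters, 24.8% held at least 1 match, 0.37% held at least 4 and 0.0313% held at least 7. Matches to TGCACNC occurred in 9.87% of promoters and those to TGCGCNC in 16.8%, and no matches overlapped in the windows of these 4 genes. The matches in the last 100 bases before the start are shown with their flanks, since they let the spacing be compared between the genes whose RNA moved in opposite directions. Each is written in the direction in which the element reads, with the element in capitals, and the distance is that of the element's base farthest from the start.
MT1X, 78 bases before the start, opposite strand, chr16:56682382-56682408: gcctcgtcctTGCACCCgcccctgctg
MT1X, 53 bases before the start, gene strand, chr16:56682407-56682433: gcggggcctcTGCGCCCggccctcttc
MT2A, 88 bases before the start, opposite strand, chr16:56608486-56608512: gggcgctgccTGCACACgccccgcgct
MT2A, 54 bases before the start, gene strand, chr16:56608520-56608546: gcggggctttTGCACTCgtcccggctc
MT2A, 8 bases before the start, gene strand, chr16:56608566-56608583: cttgccgcgcTGCACTCc
SLC30A1, 49 bases before the start, opposite strand, chr1:211579194-211579220: aactttgcttTGCACTCggaacccccg
MT1X and MT2A thus both had a match on the gene strand 53 or 54 bases before the start and 1 on the opposite strand farther out. This layout was not particular to them. MT1B, almost without reads, had such matches at 53 and 79 bases, and MT1H, without a row, at 53 and 78 bases. These windows held 3 matches in MT1B and 8 in MT1H. MT1X and MT2A also held TATAAA in the last 60 bases, as did MT1B, MT4 and 2.78% of promoters, while MT1H did not. These matches describe the letters of the windows and do not show binding.

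Other genes of zinc and copper handling were examined from 5 lists with 42 genes in all, of which 30 were tested. In these lists 7 genes (23.3%) were called higher and 5 (16.7%) lower by edgeR, near the 19.2% and 17.1% of all tested genes. The median log2 fold change was 0.011 against 0.0047 over all tested genes. Without SLC30A1 the counts were 6 higher and 5 lower of 29 tested genes (20.7% and 17.2%).

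Of 9 other zinc exporters of the SLC30 family, 6 were tested, 1 was higher and 0 were lower, with a median log2 fold change of 0.02. SLC30A4, an exporter of intracellular vesicles, rose from 25.1 ± 0.706 to 30.1 ± 1.27 CPM (log2 fold change 0.26; edgeR, adjusted p = 0.000776). SLC30A7, a transporter of the Golgi, had 64.6 ± 1.54 and 67.7 ± 1.06 CPM (edgeR, adjusted p = 0.259), and SLC30A6, also of the Golgi, had 61.0 ± 1.8 and 62.2 ± 2.26 CPM. SLC30A2, SLC30A8 and SLC30A10 had at most 3 counts in every sample.

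Among zinc importers of the SLC39 family, 2 of 11 tested genes were higher and 5 lower, with a median log2 fold change of -0.10. The shares over all tested genes were 19.2% and 17.1%. Over the 15 alternatives the importers called lower ranged from 2 to 5 and those called higher from 1 to 2. SLC39A7, which releases zinc from the endoplasmic reticulum, fell from 224 ± 9.77 to 195 ± 1.75 CPM (log2 fold change -0.20; edgeR, adjusted p = 1.16e-05). SLC39A14, an importer of zinc and also of iron and manganese, fell from 160 ± 3.42 to 139 ± 1.11 CPM (log2 fold change -0.21; edgeR, adjusted p = 1.21e-05). SLC39A1, an importer of the plasma membrane, moved the other way, from 116 ± 3.19 to 136 ± 3.42 CPM (log2 fold change 0.22; edgeR, adjusted p = 7.27e-06). SLC39A10, SLC39A3 and SLC39A6 were lower by smaller amounts, with log2 fold changes of -0.14, -0.13 and -0.10, and SLC39A13 was higher by 0.19 with overlapping groups. SLC39A3 and SLC39A6 each lost their call in 10 of 15 alternatives, DESeq2 among them (adjusted p = 0.112 and 0.0645), SLC39A13 in 7 (DESeq2, adjusted p = 0.144) and SLC39A10 in 2. Among those not called, SLC39A8 had a log2 fold change of -0.25 (edgeR, adjusted p = 0.377) and SLC39A11 of -0.06. The summed level of the importers was 975 to 990 CPM in controls and 927 to 933 CPM in 4HC.

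Copper is also bound by metallothioneins, and of 8 tested genes of copper handling 2 were higher and 0 lower, with a median log2 fold change of 0.10, where 19.2% of all tested genes were called higher. Neither of the 2 was called by DESeq2 (adjusted p = 0.164 for COMMD1 and 0.175 for ATP7A), nor by edgeR without the second or without the third control. COMMD1, a regulator of copper export, rose from 14.7 ± 0.463 to 17.1 ± 1.11 CPM (log2 fold change 0.22; edgeR, adjusted p = 0.0299). ATP7A, a copper-exporting ATPase, rose from 18.0 ± 1.23 to 20.7 ± 2.05 CPM (edgeR, adjusted p = 0.0323), although its groups overlapped. SLC31A2 and the copper chaperone ATOX1 had log2 fold changes of 0.20 and 0.12 and were not called. SLC31A1 moved the other way without overlap, from 75.7 ± 2.28 to 70.0 ± 3.94 CPM. It was not called either (log2 fold change -0.11; edgeR, adjusted p = 0.0539). In 3 alternatives 1 copper gene was called lower. These were DESeq2's size factors within edgeR, at least 10 counts in every sample, and leaving out the third 4HC sample.

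Of 6 reported MTF1 targets outside the metallothioneins, 2 were called higher and 1 lower, with a median log2 fold change of 0.05. The shares of all tested genes called were 19.2% higher and 17.1% lower. The list did not separate targets that MTF1 raises from any that it lowers, so these counts give no direction of MTF1 activity. PGF, the angiogenic placental growth factor, had 28, 23 and 29 counts in controls and 90, 79 and 76 in 4HC. It rose from 1.63 ± 0.186 to 4.99 ± 0.402 CPM, a fold change of 3.05 with a 95% interval of 2.35 to 3.95 (edgeR, adjusted p = 4.78e-10), the largest change among the tested genes of the 5 lists. The other 2 called targets were SLC30A1, which was higher, and SLC39A10, which was lower. NDRG1 had a log2 fold change of -0.24 (edgeR, adjusted p = 0.236) and CSRP1, a LIM domain protein, of 0.09 (edgeR, adjusted p = 0.117).

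**Figure D3:**
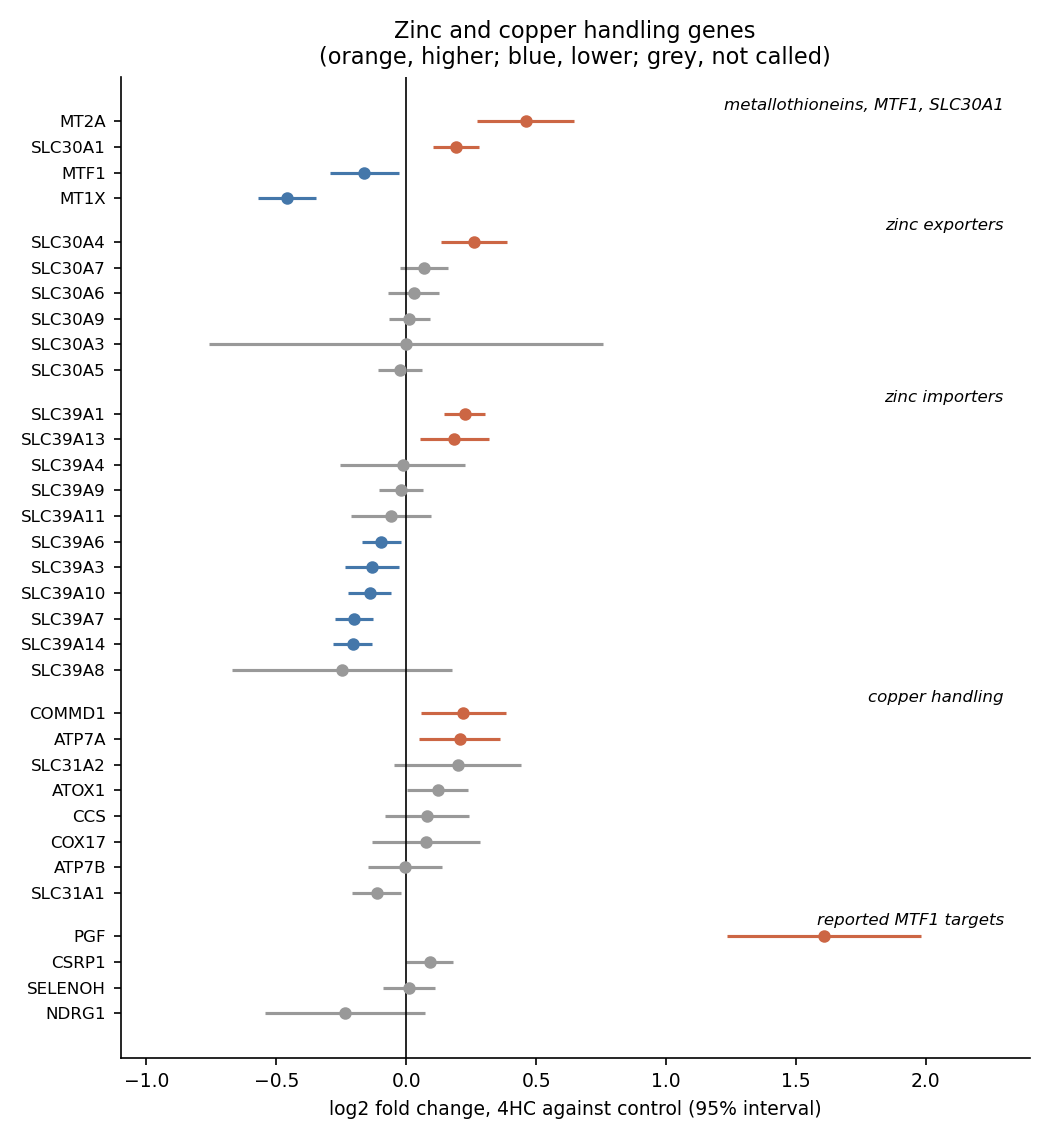
Log2 fold change of 4HC against control with its 95% interval for the tested zinc and copper genes, grouped by list, with genes called higher in orange, called lower in blue and not called in grey. PGF stands apart at 1.61, while the called transporters lie between -0.21 and 0.26.

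Several of the smaller list calls were lost when a sample was left out, most of them with any of several samples. A lost call could come with nearly the same change or with a smaller one. For SLC39A3 the log2 fold change was -0.1313 with all samples, -0.1303 without the second 4HC sample and -0.1047 without the third 4HC sample. By edgeR the adjusted p of SLC39A10 was 0.0648 without the first control. For SLC39A3 it was 0.144 and 0.07 without the second or the third control and 0.0923 and 0.149 without the second or the third 4HC sample. SLC39A6 had 0.217 and 0.0776 without the first or the third control and 0.135 and 0.114 without the first or second 4HC sample. The value for SLC39A13 was 0.111 and 0.13 without the first or the third control and 0.21 without the first 4HC sample. ATP7A had 0.0888 and 0.157 without the second or the third control and 0.126 and 0.156 without the first or the third 4HC sample. COMMD1 reached 0.0572 and 0.111 without the second or the third control and 0.178 without the second 4HC sample. The count of list genes called higher was 4 without the third control, and the count called lower was 3 without the first control, the third control or the second 4HC sample. SLC30A4, SLC39A1, SLC39A7, SLC39A14 and PGF were called in all 15 alternatives.

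**Figure D4:**
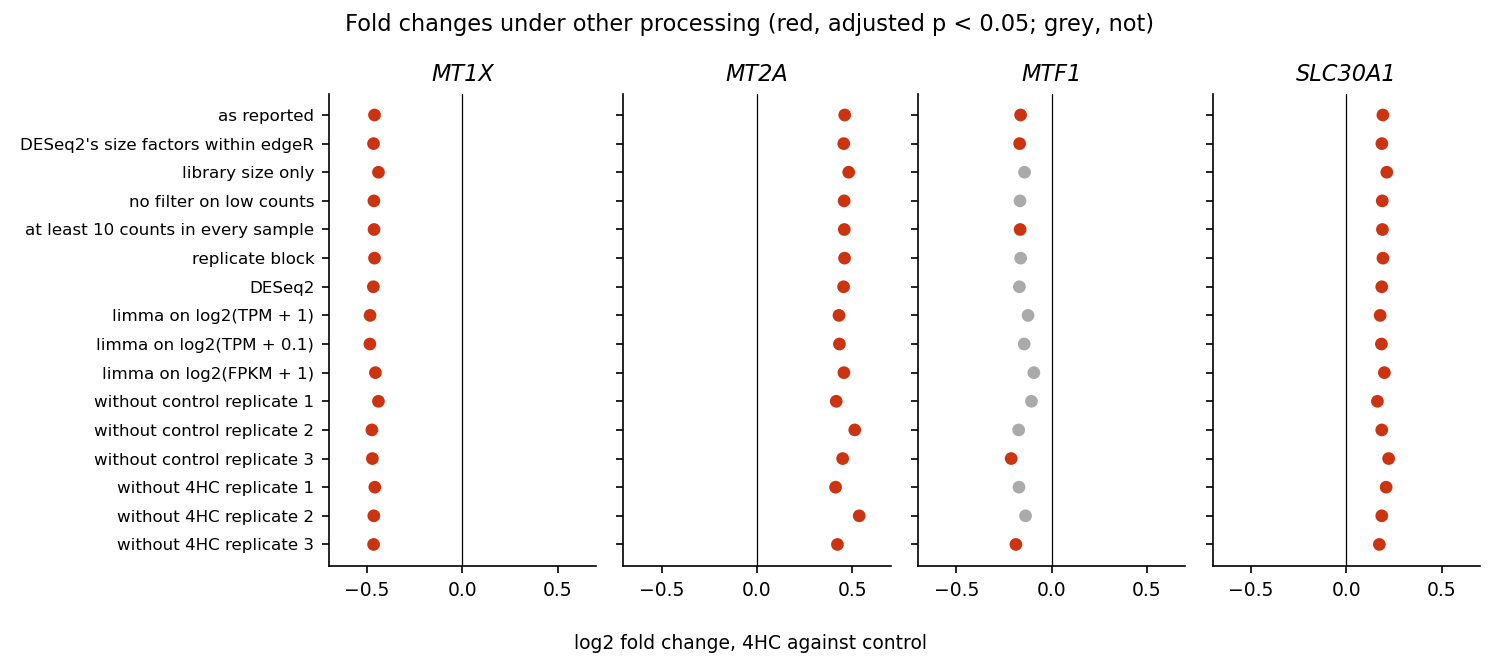
Log2 fold change of MT1X, MT2A, MTF1 and SLC30A1 in the main analysis and in each of the 15 alternatives, with calls at an adjusted p under 0.05 in red and lost calls in grey. MT1X stays between -0.48 and -0.44, MT2A between 0.41 and 0.54 and SLC30A1 between 0.16 and 0.22, all called, while MTF1 lost its call in 11.

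Genes whose levels followed MT1X most closely over the 6 samples were sought among 10273 tested genes with a mean of at least 5 CPM. The highest Pearson correlations of log2 CPM were those of DCAF4, a substrate receptor of ubiquitin ligases (r = 0.9995), and the kinesin KIF21A (r = 0.9982). DCAF4 went from 20.7 ± 1.04 to 13.2 ± 0.206 CPM and KIF21A from 744 ± 24.2 to 572 ± 5.81 CPM. Such values describe 6 points that share libraries and fall into 2 groups, and 552 genes (5.37%) had an r of at least 0.95 with MT1X.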

How the data were processed

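Total RNA of COV434 cells was sequenced in 3 control and 3 4HC samples, grouped by their labels. Reads were filtered by the authors with SOAPnuke, and the submitters' processing notes name HISAT2, Bowtie2, RSEM 1.3.1, DESeq2 1.4.5 and GRCh38.p13, with no role or order. Strandedness and read length are not given in the sources used here. The authors deposited an expected count per gene and transcript, without normalization, and 85.5% of the gene values were whole within 0.005. The authors also deposited TPM values, scaled to transcript length and to the sample's total, and FPKM values, scaled to length and library size. Columns with the authors' own comparison (log2 fold change, p-value and q-value) and a second gene table with the same values were deposited and not used.

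After rounding, expected counts were tested in R 4.3.3 with edgeR 4.0.16 (TMM, filterByExpr, quasi-likelihood test, group as the only term, Benjamini-Hochberg adjustment over 12368 genes). The biological coefficient of variation was 0.0277. As alternatives, DESeq2 1.42.0, scaling by DESeq2's size factors or by library size only, no filter, at least 10 counts in every sample, a replicate block, limma 3.58.1 on log2(TPM + 1), log2(TPM + 0.1) or log2(FPKM + 1), and the removal of each sample were tried. The test was first checked on counts simulated with a common dispersion for all genes. It recovered 99% of changes of 1.5 and 80% of changes of 0.5 on the log2 scale, and 4.28% of calls were unchanged genes. Smaller changes, such as those of the members, were not simulated. Every member was named, as were called list genes, the 2 largest uncalled changes per list and the 3 genes most like MT1X, 1 of which is not reported here. Members and lists were chosen with earlier results of these data known. The expected counts summed to 16352898 to 16702316 per control sample and 16133786 to 16383698 per 4HC sample. Sequences came from GENCODE release 29 and RefSeq. Tables were read with pandas 2.3.3 and figures drawn with matplotlib 3.10.9, both in Python 3.11.15.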

Additional observations from a re-analysis of the deposited data

How the results depend on the processing

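MT1X, MT2A, SLC30A1 and the summed metallothionein level kept their direction under every alternative run, and the first 3 also their call, with log2 fold changes of -0.48 to -0.44, 0.41 to 0.54, 0.16 to 0.22 and, for the sum, -0.25 to -0.20. The adjusted p over these alternatives was 1.86e-12 to 3.11e-06 for MT1X, 1.21e-05 to 0.00272 for MT2A and 0.000111 to 0.0212 for SLC30A1. MTF1 was not past the threshold with library size only (log2 fold change -0.14), no filter (-0.17), DESeq2 (-0.17) and limma on TPM + 1 (-0.12), TPM + 0.1 (-0.14) or FPKM + 1 (-0.093), and ranged from -0.21 to -0.11 when 1 sample was left out. The number of members called lower was then 1 in place of 2 under each of these settings, and 1 to 2 with 1 sample left out. The number called higher was 2 throughout. With the replicate number as a block, MTF1 had -0.16 with an adjusted p of 0.0646 by edgeR, 1 member was called lower and 3 list genes were called lower, and no call of MT1X, MT2A or SLC30A1 changed. Pairing was checked on log2 CPM after each gene's group mean was subtracted, so that only differences between replicates remained. These differences correlated at 0.00866 to 0.0694 over the 3 same-numbered pairs and at -0.080 to 0.045 over the differently numbered pairs. The numbers were therefore not taken to pair the samples. Of the list genes, 7 called higher became 4 with DESeq2 and 4 to 6 with 1 sample left out. The 5 called lower became 3 with library size only, DESeq2 and limma on TPM + 1 or TPM + 0.1, 2 with limma on FPKM + 1, and 3 to 5 with 1 sample left out. They became 6 with DESeq2's size factors within edgeR and with at least 10 counts in every sample. Over all genes, 2118 called lower became 1343 with limma on FPKM + 1. SLC30A6, never called, turned to -0.0056 and -0.0058 with limma on TPM + 1 and TPM + 0.1 and ranged from -0.0026 to 0.047 with 1 sample left out. SLC30A7 and ATOX1 passed the threshold only with limma. The cause of these changes was not tested. MT1E and MT1F, with at most 1 count in a sample, could not be compared, and whether their reads were assigned to other metallothioneins was not tested. With 3 samples a group no sample was tested as an outlier.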
